A study of Mus musculus with 9 samples.

Results

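Ccr2, Cx3cr1, Csf1r, Ms4a7, Lyz2, Adgre1, Cd68 and Fcgr1 are genes of monocytes and lung macrophages, and Csf1 encodes the ligand of the receptor CSF1R. Several of them are not confined to monocytes and interstitial macrophages, as given below. These genes were taken as a set of 9 and found on the array through the RefSeq transcript that each probe is designed for. All 9 of 9 genes were measured, out of 22911 genes with a probe, and 16 of the 56605 distinct probes mapped to them. Of these 16 probes, 15 passed the filter on dim probes, which asks that all arrays of 1 or more groups be well above background, and each gene kept at least 1 probe. The rule used no measured value, but the set was put together with earlier results of these arrays known, so the counts below describe the set and are no independent test of it.

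The arrays measured total RNA of whole lung from 9 mice that carried floxed TRF1 alleles (TRF1flox/flox). TRF1, encoded by Terf1, is a protein of the complex that caps telomeres. In SPC-cre TRF1flox/flox mice, the surfactant protein C promoter drives cre; this promoter is used by alveolar type 2 cells and not by the monocytes and macrophages described here. All mice were given tamoxifen weekly, at 250 mg/kg, starting when they were 8 weeks old. Control mice were TRF1flox/flox littermates without cre that had been treated for 9 months and were 11 months old (n = 3). Cre mice had been treated for 3 months and were 5 months old (3-month cre, n = 3), or for 9 months and were 11 months old (9-month cre, n = 3). The 3-month cre lungs had no control of their own age, so that comparison carries a difference in age and in length of treatment as well as in cre. The comparison of the cre groups sets mice of 11 months against mice of 5 months. In it, length of treatment cannot be told apart from age. The comparisons against control share the same 3 control lungs.

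Monocytes leave the bone marrow by way of CCR2, the receptor for the chemokine CCL2, and patrolling monocytes keep CX3CR1, the receptor for fractalkine. Survival and maturation of both monocytes and macrophages depend on CSF1R and its ligand CSF1. In the lung, macrophages of the airspace and of the interstitium differ in origin and in marker genes, but Cd68, Adgre1, Lyz2 and Fcgr1 are used by both to differing extents, and in mice Lyz2 is also made by neutrophils and by alveolar type 2 cells. In RNA of whole lung, a gene's level reflects both how many cells of a type are present and how much of the RNA each cell holds, and these cannot be told apart here.

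The start regions of 3 of the genes are shown because Cd68 and Ms4a7 were the ones called higher in 9-month cre lungs and Lyz2 was the one called lower in 9-month than in 3-month cre lungs. Each window runs from 250 bases before to 50 bases after an annotated transcript start, 5′ to 3′ along the gene, and comes from RefSeq on GRCm38.p6: chr11:69666121-69666420 (Cd68), chr19:11336097-11336396 (the first of the windows listed for Ms4a7) and chr10:117282223-117282522 (Lyz2), each on the minus strand. Capitals mark matches on either strand to GAGGAA, the core letters of sites of the myeloid transcription factor PU.1, and to TGACTCA, a site of AP-1.
Cd68: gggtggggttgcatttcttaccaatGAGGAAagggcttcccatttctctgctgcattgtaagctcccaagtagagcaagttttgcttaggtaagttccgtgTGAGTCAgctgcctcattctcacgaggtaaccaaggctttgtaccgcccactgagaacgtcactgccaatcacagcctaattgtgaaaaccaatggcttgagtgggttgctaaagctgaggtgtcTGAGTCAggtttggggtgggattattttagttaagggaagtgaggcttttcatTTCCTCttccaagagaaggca
Ms4a7: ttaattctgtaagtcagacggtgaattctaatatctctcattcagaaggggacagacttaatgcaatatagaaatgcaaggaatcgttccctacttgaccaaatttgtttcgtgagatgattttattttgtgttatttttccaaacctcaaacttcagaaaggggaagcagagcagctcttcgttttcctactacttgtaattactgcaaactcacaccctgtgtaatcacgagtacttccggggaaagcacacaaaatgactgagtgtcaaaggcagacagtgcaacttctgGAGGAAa
Lyz2: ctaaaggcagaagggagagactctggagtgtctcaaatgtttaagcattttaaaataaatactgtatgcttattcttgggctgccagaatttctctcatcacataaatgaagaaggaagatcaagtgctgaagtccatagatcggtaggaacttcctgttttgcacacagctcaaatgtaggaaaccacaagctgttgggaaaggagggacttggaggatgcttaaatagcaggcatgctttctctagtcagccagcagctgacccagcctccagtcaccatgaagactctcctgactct
The Cd68 window held GAGGAA at base 26 and, on the other strand, at base 280, and held TGACTCA on the other strand at bases 102 and 227. The Ms4a7 window held GAGGAA once, at base 294, and the Lyz2 window held neither set of letters. The other window listed for Ms4a7, not printed here, also held neither. Bases are counted from 1 at the 5′ end of a window, and no match overlapped another. Over 8 windows of 7 of the genes, 3 held GAGGAA and 1 held TGACTCA, while among 32851 windows of the same length over the genome's genes 28.3% held GAGGAA and 5.2% held TGACTCA. These are matches of letters only.

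Levels are given as log2 of the background-subtracted signal relative to the 75th percentile of the same array, so 0 is the signal that 1 probe in 4 exceeded. The percentile lay between 958 and 1430 intensity units, the median local background between 28 and 35 units, and the number of saturated spots was 0 on each array. Differences were fitted in limma over 16842 genes. A gene is said to have risen or fallen where the adjusted p was under 0.05, and errors are standard errors (SE) of a log2 fold change from 3 arrays a group. The array headers name 2 slides. The controls and replicate 1 of the 3-month cre lungs were on slide 1; the rest of the 3-month cre lungs and all 9-month cre lungs were on slide 2. Probes well above background made up 62.7% to 64.9% on slide 1 and 67.9% to 72.4% on slide 2. The sex of the mice is not in the labels: Xist was at log2 levels of -7.40, -7.72 and -7.91 in the controls, at -1.33, -8.19 and -0.95 in 3-month cre lungs and at -8.08, -0.99 and -0.71 in 9-month cre lungs, with Ddx3y, a gene of the Y chromosome, in the opposite order, which reads as 3 male controls and 1 male and 2 females in each cre group. Slide and sex therefore went partly with cre, and their part in the results was not tested beyond the values given below. A fit with slide as a block takes its slide term from the 3-month cre group alone, where replicate 1 stands by itself on slide 1. Such a fit cannot tell a slide from that lung. Terf1, whose probe may lie inside or outside the floxed exons and so may not check the deletion, had a log2 fold change against control of -0.52 ± 0.19 after 9 months and -0.55 ± 0.19 after 3 months, neither of which passed (adjusted p = 0.131 and 0.190), and Sftpc, the surfactant protein C gene, differed by 0.34 ± 0.16 and 0.14 ± 0.16 (adjusted p = 0.222 and 0.685).

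After 9 months of tamoxifen, Cd68 and Ms4a7 were the genes of the set that rose against control, and 8 of the 9 had a fold change above 0. Among all genes 3.65% were called higher and 2.81% lower in this comparison, so 2 of 9 called higher and 0 called lower stood against those shares. The median log2 fold change of the 9 genes was 0.89, beside 0.024 over all genes tested. In 4 of the 9 genes (Ccr2, Csf1r, Ms4a7 and Cd68) every 9-month cre lung was above every control lung, against 17.5% of all genes. After 3 months no gene of the set was called (0 of 9 by limma, with 4 of 9 at an unadjusted p under 0.05), beside 0.368% of all genes called higher and 0.0831% called lower. At an unadjusted p under 0.05 by limma, 1960 of the 16842 genes tested were higher and 1195 lower at 3 months. At 9 months 2491 were higher and 2111 lower. Counts at an unadjusted p in the lists below stand beside these. The median of the 9 genes at 3 months was 0.48, beside 0.054 over all genes, and in 5 of the 9 (Csf1r, Ms4a7, Lyz2, Adgre1 and Cd68) the groups did not overlap, against 19.6% of all genes. Between the cre groups, Lyz2 fell from 3 to 9 months and no other gene was called, where 1.79% of all genes were called higher and 3.2% lower. No gene of the set was above all 3-month cre lungs in all 9-month cre lungs (14.6% of all genes), and Lyz2 was the one below them (19% of all genes).

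**Figure D1:**
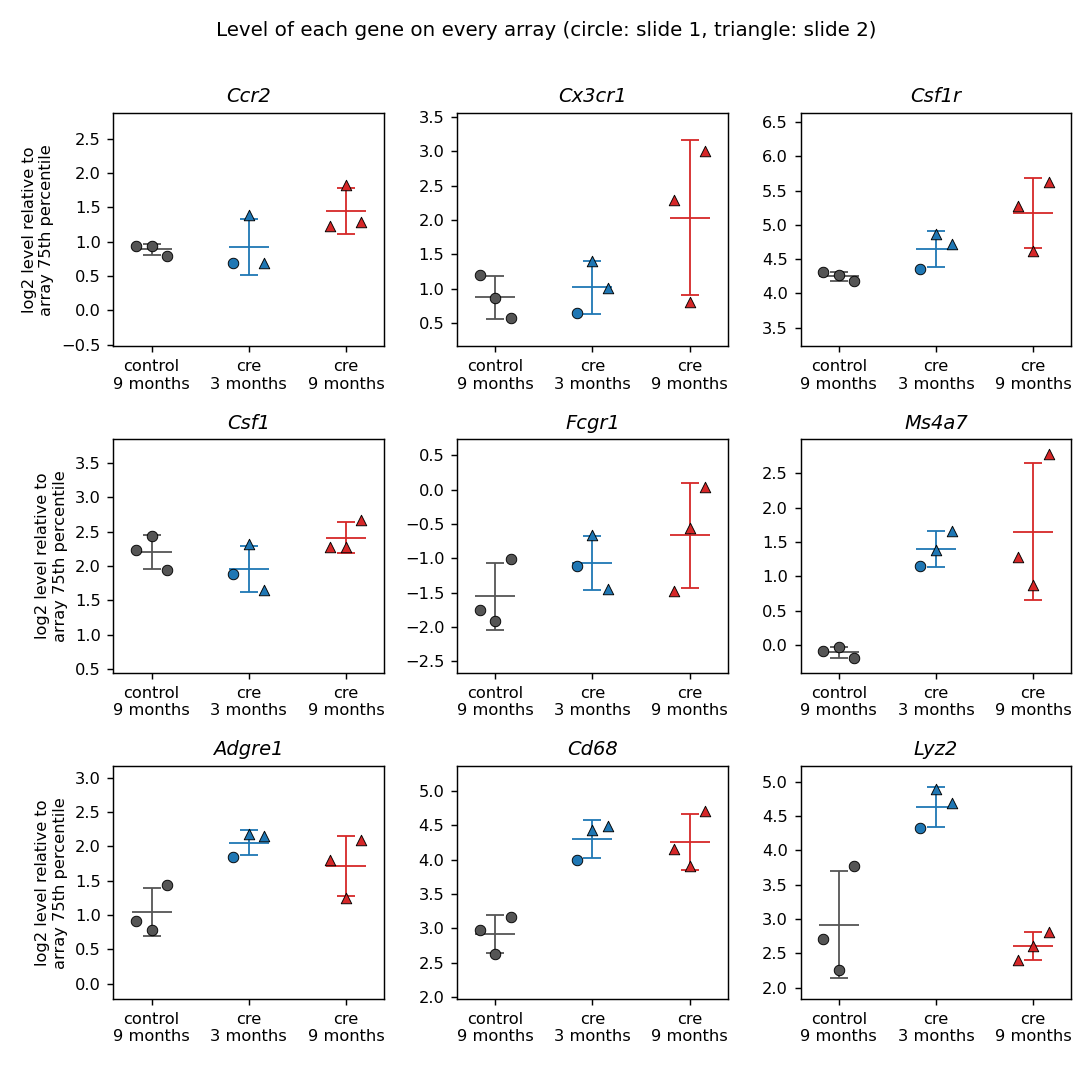
Log2 level of each gene (y axis, relative to the 75th percentile of the array) on every array, by group (x axis), with the group mean as a horizontal line and the SD as error bars (n = 3); circles are slide 1 and triangles slide 2. Cd68 and Ms4a7 lie above control in both cre groups, Lyz2 is high in the 3-month cre lungs, and Cx3cr1 spreads from 0.80 to 3.00 among the 9-month cre lungs.

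**Figure D2:**
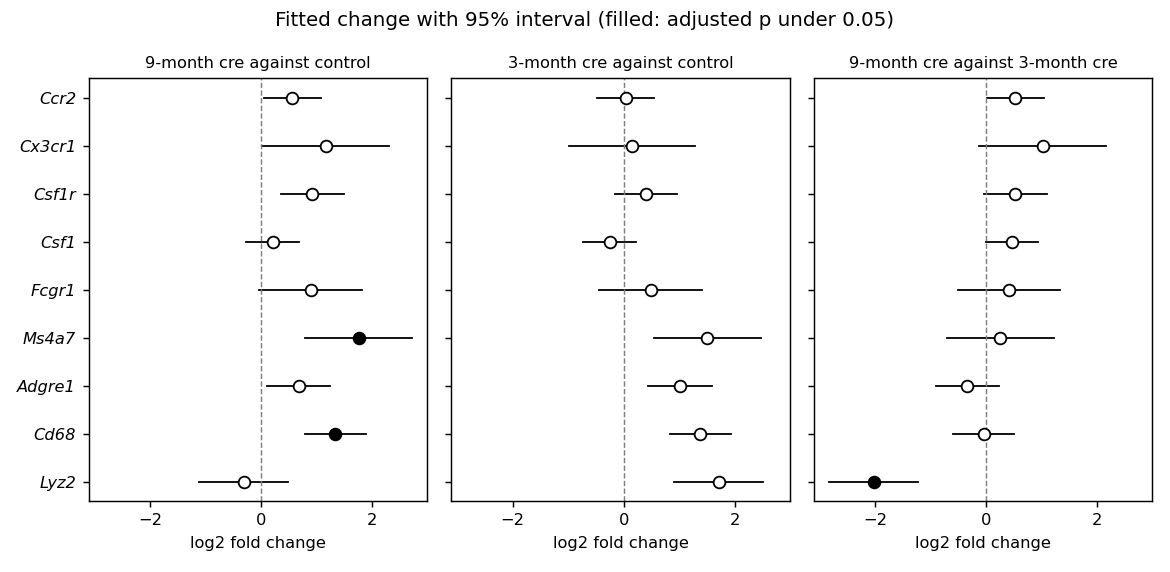
Fitted log2 fold change (x axis) of each gene in the 3 comparisons, with the 95% interval as a line; filled points passed the adjusted p of 0.05. The filled points are Ms4a7 at 1.75 and Cd68 at 1.33 for 9-month cre against control, and Lyz2 at -2.03 for 9-month against 3-month cre.

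Ccr2, the chemokine receptor of classical monocytes, was measured by 1 probe. Its log2 level was 0.93, 0.94 and 0.80 in the controls, 0.69, 1.39 and 0.69 in 3-month cre lungs and 1.23, 1.83 and 1.29 in 9-month cre lungs. All 9-month cre lungs were above the controls, while 3-month cre replicate 2 stood above the other 3-month lungs and the range of that group enclosed the controls. The 9-month log2 fold change was 0.56 ± 0.23 (95% interval 0.041 to 1.07, adjusted p = 0.157), which did not pass the threshold. At 3 months the difference was 0.035 ± 0.23 (adjusted p = 0.951), and from 3 to 9 months it was 0.52 ± 0.23 (adjusted p = 0.170).

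The ligands of CCR2 were measured beside it. Ccl2, which draws monocytes into tissue, was at -0.49, -1.00 and -1.75 in the controls, at 0.33, 0.11 and -0.080 in 3-month cre lungs and at 1.16, -0.080 and 2.66 in 9-month cre lungs. Both cre groups were entirely above the controls, and the 9-month lungs spread more widely than the others. Its log2 fold change was 2.33 ± 0.61 at 9 months and 1.20 ± 0.61 at 3 months (adjusted p = 0.0593 and 0.327), so neither passed. Ccl7, a further CCR2 ligand, differed from control by 1.62 ± 0.76 at 9 months (adjusted p = 0.207), and Ccl12, a CCR2 ligand of mice, by 1.83 ± 0.61 (adjusted p = 0.103). Ccl8, a chemokine of the same family, differed by 1.78 ± 0.57 (adjusted p = 0.0922). At 3 months these were 1.09 for Ccl7, 1.39 for Ccl12 and 1.36 for Ccl8, with adjusted p-values of 0.467, 0.269 and 0.247. All 4 chemokines were highest in 9-month cre replicate 3 among the 9 lungs.

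Cx3cr1, the fractalkine receptor of patrolling monocytes and tissue macrophages, varied widely within a group, with an SD of 1.13 in 9-month cre lungs. Its log2 level was 1.20, 0.86 and 0.56 in the controls, 0.64, 1.40 and 1.00 in 3-month cre lungs and 2.29, 0.80 and 3.00 in 9-month cre lungs. Replicates 1 and 3 of the 9-month cre group were above all other lungs, and replicate 2 lay within the range of the controls. The 9-month log2 fold change was 1.16 ± 0.50 (interval 0.020 to 2.30, adjusted p = 0.177), and without 9-month cre replicate 2, the lowest of its group, it was 1.77 (adjusted p = 0.0188). Of 20 alternatives this was the 1 that passed, and over them the 9-month value ran from 0.59 to 1.77. At 3 months the log2 fold change was 0.14 ± 0.50 (adjusted p = 0.900). A second Cx3cr1 probe gave 0.85 at 9 months and 0.47 at 3 months. Cx3cl1, the ligand, was at 2.83, 2.94 and 2.50 in the controls and 2.47, 2.05 and 2.49 in 9-month cre lungs. Every 9-month cre lung was below every control for Cx3cl1, by a log2 fold change of -0.42 ± 0.17 that did not pass (adjusted p = 0.156), and at 3 months the value was -0.011 ± 0.17 (adjusted p = 0.982).

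Csf1r, the receptor for CSF1 and interleukin 34, was at log2 levels of 4.31, 4.26 and 4.18 in the controls, 4.35, 4.86 and 4.72 in 3-month cre lungs and 5.28, 4.61 and 5.62 in 9-month cre lungs. Both cre groups were above the controls without overlap, and 9-month cre replicate 2 was again the lowest of its group. The log2 fold change was 0.92 ± 0.25 at 9 months (interval 0.36 to 1.48, adjusted p = 0.0611) and 0.40 ± 0.25 at 3 months (adjusted p = 0.414). The 9-month difference passed with normexp background correction (1.01, adjusted p = 0.0452), with the deposited values (0.94, adjusted p = 0.0497) and without 9-month cre replicate 2 (1.20, adjusted p = 0.0130). These were 3 of 20 alternatives, over which the 9-month value ran from 0.48 to 1.20. A second Csf1r probe, which the files assign to the same transcript, stayed between -0.51 and -0.13 on all 9 arrays and differed from control by 0.10 ± 0.13 at 9 months (adjusted p = 0.663). The difference between the probes was not tested. Where each probe lies in the transcript is not stated in the files or labels used.

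Csf1, the ligand, was at 2.24, 2.44 and 1.94 in the controls, 1.89, 2.32 and 1.65 in 3-month cre lungs and 2.29, 2.28 and 2.67 in 9-month cre lungs. The 3 groups overlapped. Its log2 fold change was 0.21 ± 0.21 at 9 months (interval -0.27 to 0.68, adjusted p = 0.540) and -0.26 ± 0.21 at 3 months (interval -0.73 to 0.22, adjusted p = 0.534). A pair of further Csf1 probes differed from control by 0.12 and 0.050 at 9 months. Il34, the other ligand of CSF1R, differed by 0.16 ± 0.19 at 9 months (adjusted p = 0.621), and Csf2, the cytokine on which alveolar macrophages depend, by -0.56 ± 0.47 (adjusted p = 0.462).

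Genes that act inside the cell after CSF1R were listed beside the receptor. Of 15 measured signalling genes, 6 rose and 0 fell at 9 months, with a median log2 fold change of 0.66. Fgr, a kinase of the Src family found in myeloid cells, rose by 1.66 ± 0.35 (adjusted p = 0.0345), Vav1, a signalling protein of blood cells, by 1.04 ± 0.19 (adjusted p = 0.0236), and the kinase Syk by 1.03 ± 0.19 (adjusted p = 0.0234). At 3 months 0 of 15 were called by limma, with 1 at an unadjusted p under 0.05, and the median was 0.17. From 3 to 9 months Vav1, Syk and the phosphoinositide kinase gene Pik3cg rose, by 0.88 ± 0.19, 0.81 ± 0.19 and 0.71 ± 0.13 (adjusted p = 0.0424, 0.0490 and 0.0336). These genes are shared with neutrophils and other leukocytes. Among 12 transcription factors of monocytes and macrophages, Cebpb rose by 0.84 ± 0.13 at 9 months (adjusted p = 0.0163), while Cebpa fell by 0.80 ± 0.17 on the log2 scale (adjusted p = 0.0361). At 3 months 0 of the 12 were called by limma, with 3 at an unadjusted p under 0.05. Between the cre groups Cebpb rose by 0.77 ± 0.13 and Cebpa fell by 0.97 ± 0.17 (adjusted p = 0.0290 and 0.0309).

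Ms4a7, a membrane-spanning protein of macrophages, was near the 75th percentile of the array in the controls, at -0.092, -0.028 and -0.19. Its level was 1.15, 1.39 and 1.66 in 3-month cre lungs and 1.29, 0.88 and 2.78 in 9-month cre lungs. Every cre lung was above every control, and 9-month cre replicate 3 stood well above the others. At 9 months Ms4a7 rose by a log2 fold change of 1.75 ± 0.42, a 3.37-fold difference (95% interval 1.73 to 6.56, adjusted p = 0.0477). At 3 months the value was close to that, 1.50 ± 0.42, and did not pass (adjusted p = 0.134), and from 3 to 9 months it was 0.25 ± 0.42 (adjusted p = 0.731). A second Ms4a7 probe gave 1.79 and 1.51 for the same comparisons against control. The 9-month call was lost when any of the 3 control lungs, any of the 3-month cre lungs or 9-month cre replicate 1 was left out (log2 fold change 1.71 to 1.93, adjusted p = 0.0614 to 0.126). With slide as a block the 9-month value was 1.37 (adjusted p = 0.985), with animal sex as a covariate it was 1.57 (adjusted p = 0.164), and within slide 1, where a single 3-month cre lung met the 3 controls, the 3-month value was 1.25.

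Other genes of the MS4A family were measured for comparison, 10 of 12 listed. At 9 months 2 rose and 0 fell, with a median of 0.18: Ms4a6d by 2.33 ± 0.37 (adjusted p = 0.0182) and Ms4a6c by 2.04 ± 0.38 (adjusted p = 0.0245), both known from myeloid cells. Ms4a6d was at -1.40, -1.42 and -0.92 in the controls, 0.28, 0.51 and 0.41 in 3-month cre lungs and 0.72, 0.46 and 2.06 in 9-month cre lungs, so every cre lung lay above the controls. At 3 months 0 of 10 were called by limma, with 4 at an unadjusted p under 0.05, and Ms4a6d was at 1.65 ± 0.37 (adjusted p = 0.103).

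Cd68, a lysosomal glycoprotein of macrophages, was at 2.97, 2.63 and 3.17 in the controls, 3.99, 4.43 and 4.49 in 3-month cre lungs and 4.16, 3.90 and 4.71 in 9-month cre lungs. All 6 cre lungs were above all controls, and the cre groups overlapped. Cd68 rose by a log2 fold change of 1.33 ± 0.24 at 9 months, 2.52-fold (95% interval 1.72 to 3.68, adjusted p = 0.0233). At 3 months the value was 1.38 ± 0.24 (adjusted p = 0.0633), and from 3 to 9 months it was -0.048 ± 0.24 (interval -0.60 to 0.50, adjusted p = 0.915). A second Cd68 probe gave 1.31 at 9 months and 1.71 at 3 months. The 9-month call was lost without control replicate 1 (1.36, adjusted p = 0.0547), control replicate 2 (1.18, adjusted p = 0.0786) or 9-month cre replicate 1 (1.38, adjusted p = 0.0633). With slide as a block the difference was 0.86 (adjusted p = 0.985), with animal sex as a covariate 1.35 (adjusted p = 0.0867), and within slide 1 the 3-month value was 1.07.

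Lysosomal genes were listed beside Cd68 because lysosomes are abundant in macrophages, though all cells have them. Of 14 measured, 3 rose and 0 fell at 9 months, with a median of 0.50. The proteases Ctss, Ctsd and Ctsb rose by 1.21 ± 0.23 (adjusted p = 0.0267), 1.21 ± 0.16 (adjusted p = 0.0119) and 0.92 ± 0.19 (adjusted p = 0.0341). At 3 months 0 of the 14 were called by limma, with 9 at an unadjusted p under 0.05 and a median of 0.46, and Ctss was at 1.39 ± 0.23 (adjusted p = 0.0535). Npc2, a lysosomal cholesterol carrier, fell from 3 to 9 months by 0.91 ± 0.20 on the log2 scale (adjusted p = 0.0456).

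Adgre1, which encodes the macrophage surface protein F4/80, was at 0.92, 0.78 and 1.44 in the controls, 1.84, 2.18 and 2.15 in 3-month cre lungs and 1.81, 1.24 and 2.10 in 9-month cre lungs. The 3-month cre lungs were all above the controls, whereas 9-month cre replicate 2 was below control replicate 3. The log2 fold change was 1.01 ± 0.25 at 3 months (adjusted p = 0.111) and 0.67 ± 0.25 at 9 months (interval 0.10 to 1.24, adjusted p = 0.128). Without 9-month cre replicate 2, the lowest of its group, the 9-month value was 0.91 (adjusted p = 0.0460). Of 20 alternatives this was the 1 that passed, and over them the 9-month value ran from 0.35 to 0.91. From 3 to 9 months the difference was -0.34 ± 0.25 (adjusted p = 0.400). Its other probe was well above background on 3 of 9 arrays and was not used.

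Lyz2, lysozyme M, was the gene of the set called between the cre groups. It was at 2.71, 2.26 and 3.78 in the controls, 4.32, 4.88 and 4.68 in 3-month cre lungs and 2.40, 2.61 and 2.80 in 9-month cre lungs. The 3-month cre lungs were above all other lungs, and the 9-month cre lungs lay within the range of the controls. From 3 to 9 months Lyz2 fell by 2.03 ± 0.35 on the log2 scale, 4.07-fold lower (log2 interval -2.83 to -1.22, adjusted p = 0.0306). Against control the log2 fold change was 1.71 ± 0.35 at 3 months (interval 0.91 to 2.51, adjusted p = 0.0862) and -0.31 ± 0.35 at 9 months (interval -1.12 to 0.49, adjusted p = 0.585). Without control replicate 3, the highest control, the 3-month value was 2.14 (adjusted p = 0.0279) and the 9-month value 0.12. Within slide 2 alone, with 2 lungs against 3, the difference was as large, -2.18 (adjusted p = 0.159), and with animal sex as a covariate it was -2.03 (adjusted p = 0.0523). The call was lost without 3-month cre replicates 1, 2 or 3 or 9-month cre replicate 1 (-2.18 to -1.90, adjusted p = 0.0667 to 0.118).

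Lyz1, the neighbouring copy of the gene whose sequence is nearly the same, was not called between the cre groups. It was at 5.07, 4.61 and 4.78 in the controls, 4.78, 5.45 and 5.57 in 3-month cre lungs and 5.47, 5.23 and 5.24 in 9-month cre lungs. The cre groups overlapped, and the log2 fold change from 3 to 9 months was 0.048 ± 0.22 (interval -0.45 to 0.54, adjusted p = 0.908). Whether either probe also reads the other gene was not tested. Among 10 genes of alveolar type 2 cells, which make Lyz2 in mice, 2 fell and 0 rose from 3 to 9 months: Slc34a2, a phosphate transporter of these cells, by 1.99 ± 0.25 on the log2 scale (adjusted p = 0.0201) and Etv5, a transcription factor they need, by 0.91 ± 0.16 (adjusted p = 0.0305). Not all genes of the list went down. In 3 of the 10 the fold change from 3 to 9 months was above 0, among them Sftpc at 0.20 ± 0.16 (adjusted p = 0.455). Slc34a2 was at 0.32, -0.089 and 1.08 in the controls, 1.35, 1.46 and 1.47 in 3-month cre lungs and -0.58, -0.58 and -0.53 in 9-month cre lungs. The median of the 10 was -0.42 from 3 to 9 months and 0.32 for 3-month cre against control, and their summed level was 659 to 766 in controls, 722 to 994 in 3-month and 778 to 1010 in 9-month cre lungs, in units of the array's 75th percentile. Their part in the Lyz2 difference was not tested.

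Fcgr1, the high-affinity receptor for IgG that is used to mark macrophages, was measured by 1 probe. It was at -1.75, -1.91 and -1.00 in the controls, -1.12, -0.66 and -1.44 in 3-month cre lungs and -1.48, -0.56 and 0.039 in 9-month cre lungs. All 3 groups overlapped, with 9-month cre replicate 3 the highest of the 9 lungs. The log2 fold change was 0.89 ± 0.40 at 9 months (interval -0.035 to 1.81, adjusted p = 0.196) and 0.48 ± 0.40 at 3 months (adjusted p = 0.547). Its signalling partner Fcer1g, the common gamma chain of Fc receptors, rose at 9 months by 1.42 ± 0.28 (adjusted p = 0.0274), from 3.23, 3.16 and 3.38 in the controls to 4.59, 4.17 and 5.27. Tyrobp, a related adaptor of myeloid receptors, rose by 1.34 ± 0.25 (adjusted p = 0.0263), from 3.52, 3.18 and 4.06 to 4.77, 4.94 and 5.07. In both adaptors every 9-month cre lung was above every control. Of 8 Fc receptor genes other than Fcgr1, Fcer1g included, 3 rose and 0 fell at 9 months, with a median of 0.81, among them the inhibitory receptor Fcgr2b by 1.25 ± 0.19 (adjusted p = 0.0163) and the activating receptor Fcgr4 by 0.97 ± 0.16 (adjusted p = 0.0183). From 3 to 9 months Fcgr4 rose by 0.79 ± 0.16 (adjusted p = 0.0368) and Fcer1a, a chain of the IgE receptor, fell by 0.75 ± 0.17 on the log2 scale (adjusted p = 0.0463). Fcer1a was dim, at -4.36, -4.04 and -4.57 in 3-month and -4.86, -5.22 and -5.14 in 9-month cre lungs, though well above background in each.

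The genes did not share 1 order of the groups. The mean was highest in 9-month cre lungs for Ccr2, Cx3cr1, Csf1r, Csf1, Ms4a7 and Fcgr1 and in 3-month cre lungs for Lyz2, Adgre1 and Cd68. Of the steps between neighbouring groups in these orders, only that of Cd68 from 9-month cre lungs down to control passed the test. Single lungs stood out across genes. 9-month cre replicate 3 was the highest of the 9 lungs in 6 of the 9 genes and the highest of its group in 8. 9-month cre replicate 2 was the lowest of its group in 6, and 3-month cre replicate 2 was the highest of its group in 7. Control replicate 2 was the lowest of all lungs in 4 genes and control replicate 3 in 3. No slide held both controls and 9-month cre lungs, so values with slide as a block rest on the 3-month cre lungs. Of these, replicate 1, the one on slide 1, was the lowest of its group in 6 of the 9 genes. With slide as a block, the 9-month log2 fold changes of the genes not called were 0.21 for Ccr2, 0.59 for Cx3cr1, 0.48 for Csf1r, 0.11 for Csf1, 0.35 for Adgre1, 0.83 for Fcgr1 and -0.78 for Lyz2, each closer to 0 than without the block except that of Lyz2. Within slide 1 the 3-month values were -0.20 for Ccr2, -0.23 for Cx3cr1, 0.10 for Csf1r, -0.32 for Csf1, 0.79 for Adgre1, 0.44 for Fcgr1 and 1.40 for Lyz2. Those of Ccr2 and Cx3cr1 thus turned below 0 there.

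**Figure D3:**
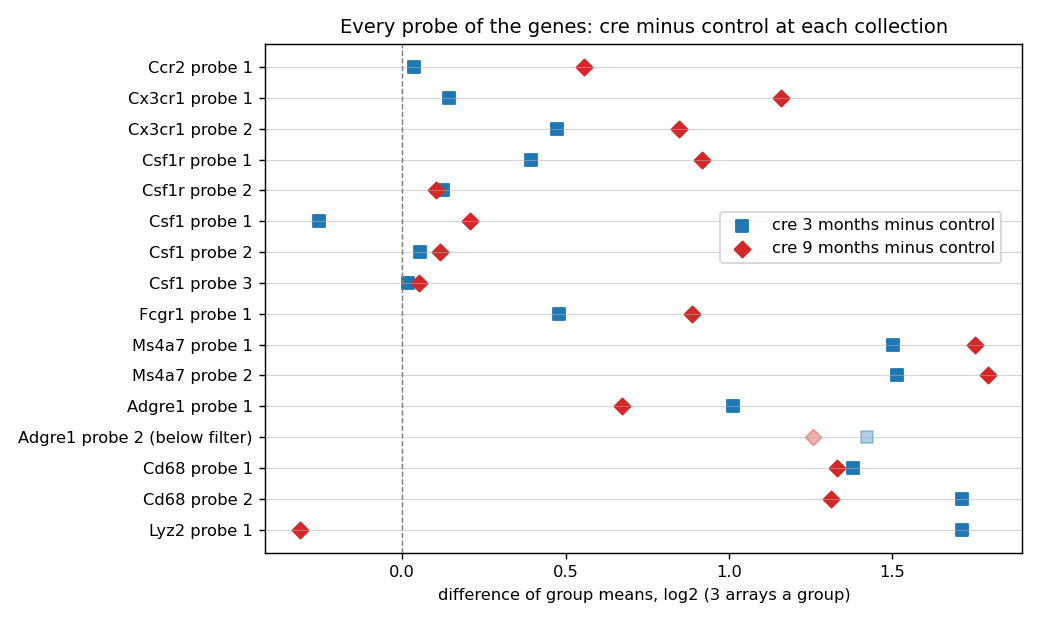
Difference of group means on the log2 scale (x axis, 3 arrays a group) for each of the 16 probes (y axis), 3-month cre minus control as squares and 9-month cre minus control as diamonds; the Adgre1 probe below the filter is drawn pale. The probes of Ms4a7 lie close together, while those of Csf1r are at 0.92 and 0.10 for 9-month cre.

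Over the 9 arrays and 15481 genes, the genes whose levels ran most like each gene were named as a description, with Pearson's r. All points share the same 3 groups and slides, so a gene that differs between groups in the same way ranks high. Nearest to Cd68 were Tmem181a (r = 0.994), the protease Ctss (0.988) and Mpeg1, a pore-forming protein of macrophages (0.985). Among the nearest to Ms4a7 were Fmn1 (0.988) and the lysosomal enzyme Lgmn (0.982). Nearest to Csf1r were Tnf (0.986), Nfkb2 (0.986) and Cd300c2 (0.985), and nearest to Cx3cr1 were Fut7 (0.986), Ralb (0.982) and Gpr132 (0.982). Lyz2 ran most like Dkc1 (0.984), Sdha (0.983) and Slc25a13 (0.980), and Adgre1 most like Ldha (0.982), Cfi (0.968) and Nek2 (0.965). The values were lower for Ccr2 (Cebpzos 0.947, Mfsd13b 0.929, Gp6 0.929), Csf1 (Igf2 0.952, Psma8 0.945, Hap1 0.927) and Fcgr1 (Gmnn 0.951, Rit1 0.931, Kars 0.931).

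Lists of genes for monocytes and macrophages were set beside the 9 genes. Of 10 classical monocyte genes, 2 rose and 0 fell at 9 months, S100a4, a calcium-binding protein also found in other cells, by 1.62 ± 0.18 (adjusted p = 0.00897) and the matrix protein gene Thbs1 by 0.97 ± 0.21 (adjusted p = 0.0363), with a median of 0.75. At 3 months 0 of these 10 were called by limma, with 2 at an unadjusted p under 0.05 and a median of 0.28, and S100a4 rose from 3 to 9 months by 1.18 ± 0.18 (adjusted p = 0.0264). Of 10 non-classical monocyte genes 0 were called at 9 months by limma, with 2 at an unadjusted p under 0.05. Their median was 1.03, and Itgal, an integrin of leukocytes, was at 1.32 ± 0.35 (adjusted p = 0.0601). At 3 months that median was -0.019. Their summed level was 90.4, 37.7 and 142 in 9-month cre lungs against 35.9 to 39.9 in controls, so that replicate 2 again lay with the controls. Of 14 interstitial macrophage genes 1 rose and 1 fell at 9 months, with a median of 0.59. The one that fell was Tmem119, by 0.76 ± 0.18 on the log2 scale (adjusted p = 0.0490). The complement gene C1qb of that list was at 0.83 ± 0.31 at 3 months (adjusted p = 0.209), where 0 of the 14 were called by limma and 3 had an unadjusted p under 0.05.

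Genes of the macrophages of the airspace were listed as well; no test compared the lists with each other. Of 18 alveolar macrophage genes, 5 rose and 0 fell at 3 months, with a median log2 fold change of 1.01. The protease Ctsk rose by 2.51 ± 0.28 (adjusted p = 0.0208), the lipoprotein receptor gene Olr1 by 1.68 ± 0.24 (adjusted p = 0.0344) and Atp6v0d2, a proton pump subunit, by 1.66 ± 0.22 (adjusted p = 0.0302). At 9 months 3 of 18 rose and 0 fell, with a median of 0.47: Ctsk by 1.87 ± 0.28 (adjusted p = 0.0162), Atp6v0d2 by 1.15 ± 0.22 (adjusted p = 0.0266) and the mannose receptor gene Mrc1 by 0.81 ± 0.15 (adjusted p = 0.0266). From 3 to 9 months 2 fell and 0 rose, with a median of -0.52: Car4 by 0.91 ± 0.19 and Slc7a2 by 0.90 ± 0.14 (adjusted p = 0.0402 and 0.0264). The summed level of the list was 149.7 to 230.5 in controls, 337 to 381 in 3-month cre lungs and 262 to 378 in 9-month cre lungs. Cd68, Lyz2 and Adgre1, the genes of the set with the highest mean at 3 months, are also used by alveolar macrophages, and the part of these cells in their values was not tested.

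**Figure D4:**
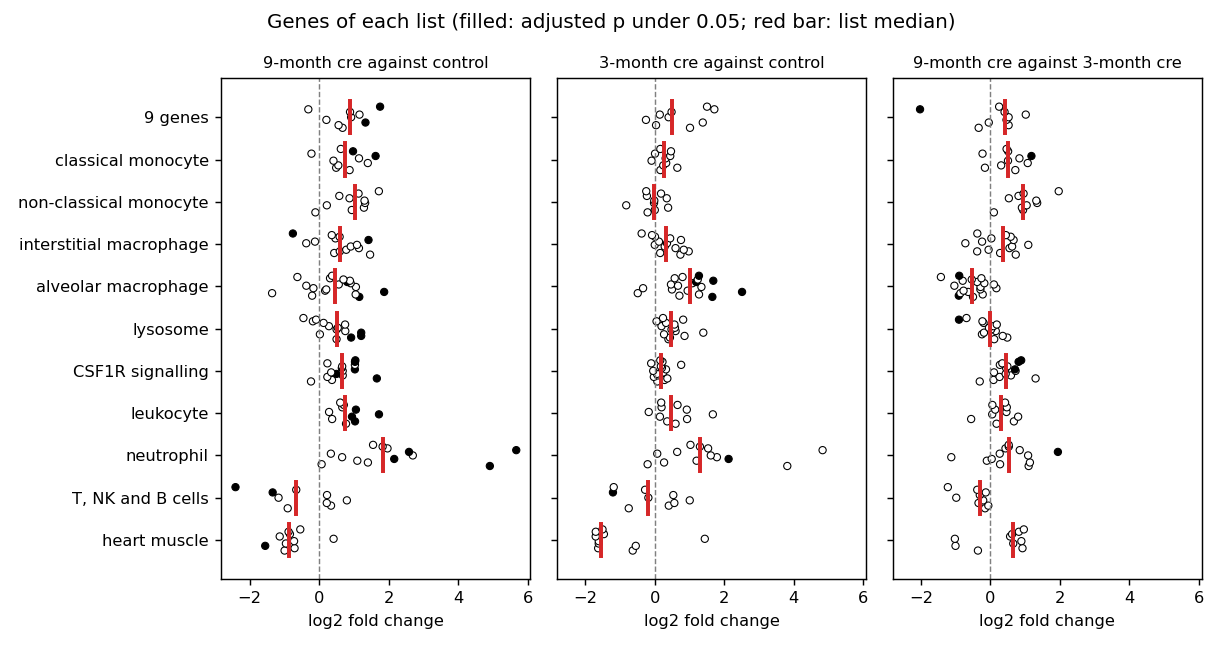
Log2 fold change (x axis) of each measured gene of the lists (y axis) in the 3 comparisons; filled points passed the adjusted p of 0.05 and the red bar is the median of the list. The alveolar macrophage median is at 1.01 for 3-month cre against control and -0.52 for 9-month against 3-month cre, while the non-classical monocyte median is at -0.019 and 0.95.

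Genes of other cells moved in the same comparisons. Of 10 leukocyte genes, of which Cybb and Itgam are mainly myeloid, 4 rose and 0 fell at 9 months, with a median of 0.74. Those that rose included Cybb, a subunit of the phagocyte oxidase, by 1.72 ± 0.32 (adjusted p = 0.0245), the integrin gene Itgb2 by 1.06 ± 0.25 (adjusted p = 0.0448) and Cd52 by 1.03 ± 0.20 (adjusted p = 0.0278). Of 14 neutrophil genes 13 were measured, 4 rose and 0 fell at 9 months, with a median of 1.82 that is the same with Ngp at its bound. The granule gene Camp rose by 4.91 ± 0.79 (adjusted p = 0.0182) and Mpo, the myeloperoxidase gene, by 2.58 ± 0.44 (adjusted p = 0.0205). Ngp, a further granule gene, was not well above background in any control and was at least 21.2-fold higher in 9-month cre lungs (adjusted p = 0.0163), measured against the dimmest signal that counts as well above background. The granule gene Lcn2, which epithelial cells also make, rose at 3 months by 2.12 ± 0.26 (adjusted p = 0.0258), and Mpo rose from 3 to 9 months by 1.94 ± 0.44 (adjusted p = 0.0478). The summed neutrophil level was 116 to 226 in controls, 224 to 302 in 3-month and 201 to 477 in 9-month cre lungs, and was lowest of its group in 9-month cre replicate 3, the lung highest for most of the 9 genes. The part of neutrophils in the values of Lyz2, Fcgr1 and the signalling genes was not tested.

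Dendritic cell genes had 1 of 10 higher and 0 lower at 9 months, Flt3, a growth factor receptor, by 1.05 ± 0.13 (adjusted p = 0.0106), with a median of 0.53. Of 9 measured genes of T, natural killer and B cells, 2 fell and 0 rose at 9 months, both from natural killer cells, with a median of -0.66. The control lungs had Ncr1 at -3.64, -3.91 and -4.21, and the 9-month cre lungs had it at -7.23, -6.52 and -5.24 (adjusted p = 0.0266). It was well above background in 1 of those 3 cre lungs, so no fold is given. Klrb1c fell by 1.34 ± 0.14 on the log2 scale (adjusted p = 0.00897). Klrb1c also fell at 3 months, by 1.21 ± 0.14 (adjusted p = 0.0244). Of 10 heart muscle genes, which heart tissue or the muscle of pulmonary veins can bring into lung RNA, 1 fell at 9 months, Myh7 by 1.55 ± 0.31 (adjusted p = 0.0297), and the summed level was 71.4 to 229 in controls, 33.5 to 94.4 in 3-month and 68.2 to 90.6 in 9-month cre lungs. The part of this difference in the levels of the 9 genes was not tested.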

How the data were processed

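RNA of 9 whole lungs was labelled with Cy3 and hybridised to one-colour Agilent arrays, 1 lung an array, and each array held 62976 spots. The deposited scanner files hold spot intensity, background-subtracted within each array by Feature Extraction 10.7.3.1, per the file headers. A separate deposited set of linear intensity values, brought by the authors to nearly the same distribution on every array by a step not given in the sources used here, served as an alternative. From the intensities, log2 processed signal was computed and each array's 75th percentile over non-control probes subtracted. The log2 values are not from the authors; they were computed from the deposited signals. Irregular spots were left out and spots of a probe averaged. A probe passed the filter if all arrays of 1 or more groups were well above background for it (37646 probes). Probes were named through RefSeq transcripts (32994 named, 23611 not), and a gene was read from its probe of highest mean over the 9 arrays (16842 genes, 10 with a missing value). The file headers name mm9 as the design's build, and array coordinates were not used.

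A limma 3.58.1 model (R 4.3.3, with the data.table package, version 1.17.8) held all groups, with 3 arrays a group and 6 residual degrees of freedom, with two-sided tests, Benjamini-Hochberg adjustment over all genes of a comparison and a call at an adjusted p under 0.05. The fit was also run on simulated data with independent noise on each array. Those data held no effect of slide or sex, so that run cannot speak to either. Intervals are 95%. The number of arrays limits the precision. The labels call replicates biological. The 9 genes, the lists and the tests were chosen with earlier results of these data known. Named genes are the 9, their ligands and partners, from each other list up to 3 called genes with the largest change or, with none called, up to 2 with the smallest p given as values, and the 3 genes most like each of the 9. Some genes that this rule names are not reported here. A list's summed level adds the linear levels of its genes. Alternatives varied background correction (normexp, offset 50), scaling, filter, slide, sex, groups in the fit, probes, pairing and replicates.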

Additional observations from a re-analysis of the deposited data

Results flagged for a closer look

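Lyz2 differed between the cre lungs of the early and the late collection, by a log2 difference of -2.03 ± 0.35 (limma, adjusted p = 0.0306). It was raised here because the test of the difference itself passed. Against the same controls the log2 fold change was 1.71 at 3 months and -0.31 at 9 months (limma, adjusted p = 0.0862 and 0.585). Neither of these passed, and the 9-month cre lungs lay within the range of the controls (2.26 to 3.78). The call between the cre groups was lost in 9 of 21 alternatives. The 3 lungs of the 3-month cre group were at 4.32 to 4.88 and those of the 9-month cre group at 2.40 to 2.80. These mice were 5 and 11 months old, so age and length of treatment cannot be told apart in the difference. With 3 arrays a group, no group was large enough to be tested for a single outlying lung.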

How the results depend on the processing

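Over the 9 genes, their 3 comparisons and all alternatives, 499 values kept their direction and side of the threshold, 13 passed it newly, 29 lost the call and 17 changed sign. Most values that kept their side were of differences not called to begin with. The 29 losses all fell on the called differences. Ms4a7 at 9 months lost its call in 13 of 20 alternatives, Cd68 at 9 months in 7 of 20 and Lyz2 from 3 to 9 months in 9 of 21. Where the cause is not given, it was not tested. For 9-month cre against control, 1087 genes (614 higher, 473 lower) and 2 of the 9 genes were called. The counts were 489 and 1 with no filter on dim probes, 0 and 0 with slide as a block (837 genes at an unadjusted p under 0.05), 0 and 0 with animal sex as a covariate (3709 at an unadjusted p under 0.05), 185 and 0 with only the 2 groups compared, and 0 of the 9 genes with every probe as a feature, where all kept probes of a gene had to pass (of the Cd68 probes the brighter one passed, adjusted p = 0.0310, and the other did not, adjusted p = 0.0541). Leaving out a replicate gave 158 to 1638 genes and 0 to 5 of the 9. Quantile normalization turned the split to 536 higher and 587 lower, and the deposited values to 555 and 655; normexp gave 605 and 550. For 3-month cre against control, 76 genes and 0 of the 9 were called. All genes gave 49 with normexp, 43 with the deposited values, 14 with no filter, 45 with probes well above background on every array, 0 with slide as a block (1144 at an unadjusted p under 0.05), 4 within 1 slide, 0 with animal sex (2189 at an unadjusted p under 0.05), 389 with only the 2 groups compared and 198 probes with every probe as a feature. Of the 9 genes, median scaling called 1 (Cd68, adjusted p = 0.0482) and the fit of 2 groups 2 (Cd68, adjusted p = 0.0342, and Ms4a7, adjusted p = 0.0174). Leaving out a replicate gave 1 to 322 genes and 0 to 2 of the 9, the 2 being Cd68 and Ms4a7 without 9-month cre replicate 3. For 9-month against 3-month cre, 840 genes and 1 of the 9 were called. All genes gave 427 with median scaling, 335 with only the 2 groups compared and 2391 probes with every probe as a feature. All genes and the 9 gave 104 and 0 with no filter (Lyz2 adjusted p = 0.0585), 0 and 0 with slide as a block (3589 at an unadjusted p under 0.05), 0 and 0 within 1 slide (2975 at an unadjusted p under 0.05) and 234 and 0 with animal sex. Leaving out a replicate gave 0 to 1224 genes and 0 to 3 of the 9.

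Signs changed in 5 differences, none of them called. Ccr2 at 3 months was -0.0037 with quantile normalization, -0.029 with the deposited values and -0.20 with slide as a block or within 1 slide, and Cx3cr1 at 3 months was -0.23 with slide as a block or within 1 slide. Cd68 from 3 to 9 months was 0.0045 with the deposited values. Without 1 replicate, Ccr2 at 3 months ranged from -0.20 to 0.15, Cx3cr1 at 3 months from -0.050 to 0.33, Cd68 from 3 to 9 months from -0.27 to 0.13, Ms4a7 from 3 to 9 months from -0.31 to 0.63 and Lyz2 at 9 months against control from -0.64 to 0.12. Scaling moved the median of all genes by under 0.1 on the log2 scale.

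The labels give no pairing by replicate number. The correlation of deviations from the group means was -0.24 to 0.045 for lungs with the same number and -0.12 to 0.25 for the others. With so few lungs these values cannot exclude a pairing. With a replicate block, 317 genes and 1 of the 9 were called for 9-month cre against control, 42 and 0 for 3-month cre against control, and 6 and 0 for 9-month against 3-month cre (Lyz2 adjusted p = 0.0627). Within 1 slide, 9-month cre against control could not be fitted, because no slide held both.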
